A study of Solanum tuberosum with 72 samples.

Results

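The transcript response of potato (Solanum tuberosum) seedling roots to 9 h at 4 °C was read from 6 of the 72 two-colour arrays of a cold, heat and salt study. These were the 3 cold root arrays and the 3 control root arrays taken at 9 h, paired by replicate number, and a spot was used where each group had at least 2 values. Of 32448 spots, 16496 met this rule and 16490 gave an estimate in the paired fit. Seedlings of the variety Gilroy were raised from true potato seed for 5 weeks on hydroponic medium in closed boxes at 25 °C, with 16 h of light and 8 h of dark. For the cold group the medium was exchanged for medium already at 4 °C and the boxes stood on ice, and for the control group the medium was exchanged in the same way without chilling. A sample pooled 6 plants from 2 boxes, a reference pooled 6 unstressed boxes, and 3 independent runs of the whole experiment are numbered as replicates 1 to 3. Also used for comparison were cold and control roots at 3 and 27 h, cold and control leaves at 9 h, and roots after 9 h of heat (35 °C) or of NaCl, with 3 arrays each. The fit itself took in all 36 root arrays, and that for root against leaf all 72. Standard errors and p-values therefore also drew on heat and NaCl arrays of 3 and 27 h.

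Plants sense cold within minutes through changes in membranes and calcium, and protein kinases, phosphatases and transcription factors then alter the transcripts of metabolism, protection and growth. In roots, which live on sugar imported from the leaves, starch and sucrose enzymes, cell wall enzymes and stress signalling genes are among the known targets of chilling. Potato is of interest because its starch and sugars shift in the cold.

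Each value was a log2 ratio between a sample labelled with Cy3 and the reference pool of the same tissue, time and experiment labelled with Cy5. The sources used here do not state which channel is the numerator, and no dye was swapped. A change is therefore called positive where the log2 ratio was higher on cold than on control arrays, and negative where it was lower, and neither word says whether the RNA went up or down. Since the labelling was the same on every array, a sign means the same thing for all genes and times. A ratio to a pool of the same tissue holds no level, so the tissue label could not be checked against marker levels. Gene names were available for 1630 spots that pair with 1 gene each, which cover 430 genes, and spots without a name are given by number. Most probes were printed as a pair of spots, so a gene can count more than once.

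Cold roots departed far more from their reference than control roots did. The share of spots at least 2-fold from the reference pool was 9.61, 10.9 and 10.9% on the cold arrays, against 0.790, 2.01 and 1.02% on the control arrays. The groups did not overlap, with 10.5 ± 0.747% on cold and 1.27 ± 0.647% on control arrays (SD, n = 3 each), and the exact two-sided permutation test gave p = 0.1, the smallest that 3 against 3 arrays allow. The paired differences were 8.82, 8.86 and 9.92 percentage points. Across 14210 spots with all 6 values, the cold minus control differences of the 3 pairs correlated with each other at 0.79 to 0.83.

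Across all tested spots, 4602 of 16490 (27.9%) had an adjusted p under 0.05 in limma, and these are the called spots below. Positive calls numbered 2414 (14.6% of those tested) and negative calls 2188 (13.3%). The median log2 change was 0.78 among positive calls and -0.71 among negative calls, and the median standard error over all tested spots was 0.17. Large changes leaned to the positive side, with 879 positive against 582 negative calls at 2-fold or more, 222 against 42 at 4-fold or more, and 66 against 10 at 8-fold or more. Of 4195 called spots with 3 full pairs, 4145 (98.8%) had the same sign in every pair, against 8284 of 14210 tested spots (58.3%). The cold and control arrays did not overlap for 4314 of the 4602 calls (93.7%), against 41.6% of all tested spots. Both shares come from the arrays that made the calls, so they describe the calls and are no separate check. The second spot of the printed pair was tested for 4426 calls, was called with the same sign for 3604 of them (81.4%) and with the other sign for 0.

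**Figure D1:**
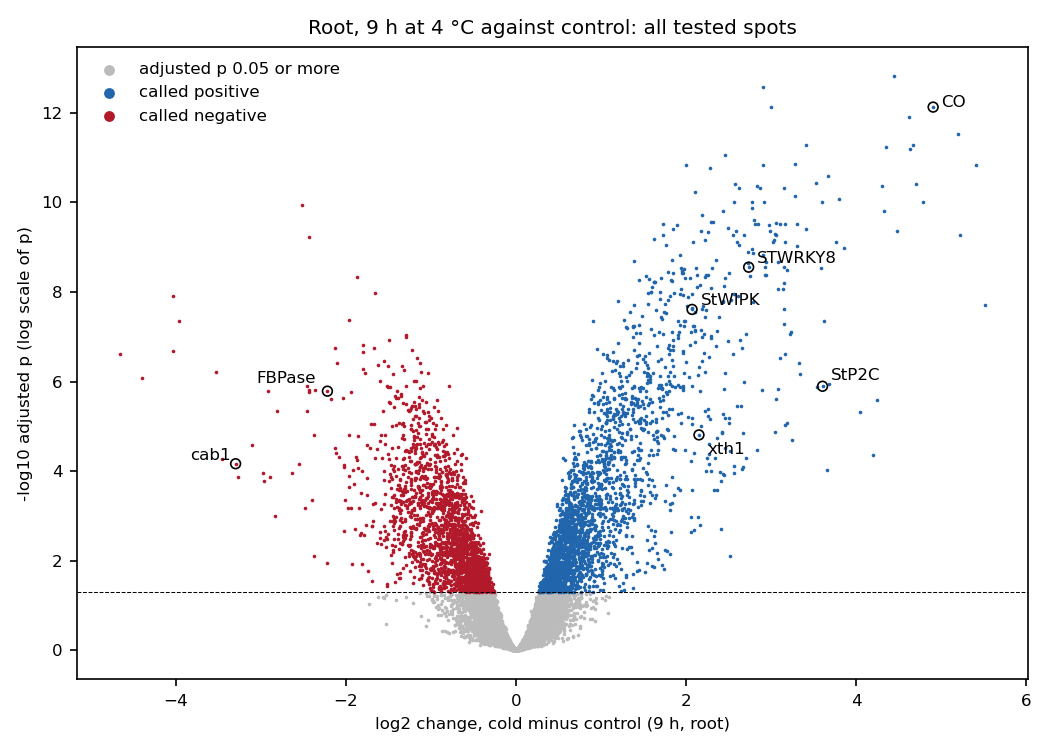
Each point is a spot, with the log2 change (cold minus control at 9 h in root) on the x axis and the negative log10 of the adjusted p on the y axis. The 2414 positive calls reach further from 0 than the 2188 negative ones, and circles mark the spots of 7 genes described in the text.

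Among spots with a gene name, 406 of 1352 were called (30%), and 162 of 397 tested genes had at least 1 called spot, positive in 79 genes and negative in 84. The gene groups below were put together with results of these data known, so their counts describe them and are set beside the 30% over all named spots. That 30% holds both signs, with 196 positive and 210 negative calls among the 1352 named spots. Where a group has 0 calls on a side, it also had 0 spots there at an unadjusted p under 0.05 in limma, except for 1 negative spot among the methionine and polyamine genes and 2 positive spots among the mitochondrial genes. Where a gene has several spots, the values given are those of the spot stated, or the range over its spots.

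Signalling genes had 12 positive calls and 0 negative calls among 28 spots of 12 genes. StP2C, a type 2C protein phosphatase of the family that restrains abscisic acid and stress signalling, had log2 ratios of 3.70, 3.37 and 4.10 on cold arrays, against -0.09 and 0.34 on the control arrays of replicates 2 and 3, with no value on control replicate 1. Its change was 3.60 ± 0.41 (SE, 12.2-fold, adjusted p = 1.27e-06), and its partner spot gave 4.05. All cold values of StP2C lay more than 3 log2 units above both control values.

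The MAP kinase module, the relay of kinases that carries wound and stress signals, had 6 positive calls and 0 negative calls among 14 spots of 6 genes, with a median of 0.24. StWIPK, the wound-induced MAP kinase, had 2.27, 1.66 and 2.06 on cold arrays and 0.08, -0.23 and -0.07 on control arrays. The change was 2.07 ± 0.20 (SE, 4.20-fold, adjusted p = 2.46e-08), and every cold array lay above every control array. StMKP1, a phosphatase that switches MAP kinases off, had 1.13, 1.25 and 0.92 on cold arrays against -0.04, -0.30 and -0.20 on control arrays, a change of 1.28 ± 0.18 (SE, adjusted p = 5.77e-06). The kinase and the phosphatase thus carried changes of the same sign. StMPK3 changed less, by 0.59 ± 0.14 (SE, adjusted p = 0.00186), and no spot of StMPK1, StMPK2 or StMPK4 was called.

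Calcium-dependent protein kinases and the respiratory burst oxidase, which turn a calcium signal into phosphorylation and reactive oxygen, had 4 positive calls and 0 negative calls among 12 spots of 5 genes (median 0.36). The share called was 33.3%, near the 30% over all named spots. The calls came from the printed pairs of CDPK2 and RBOHC. CDPK2 changed by 0.59 ± 0.13 (SE, adjusted p = 0.00148) and the oxidase gene RBOHC by 0.69 ± 0.17 (SE, adjusted p = 0.00271). RBOHC had 0.70, 0.31 and 0.37 on cold arrays, against -0.12, -0.32 and -0.27 on control arrays. CDPK1, CDPK4 and CDPK5 had no called spot.

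**Figure D2:**
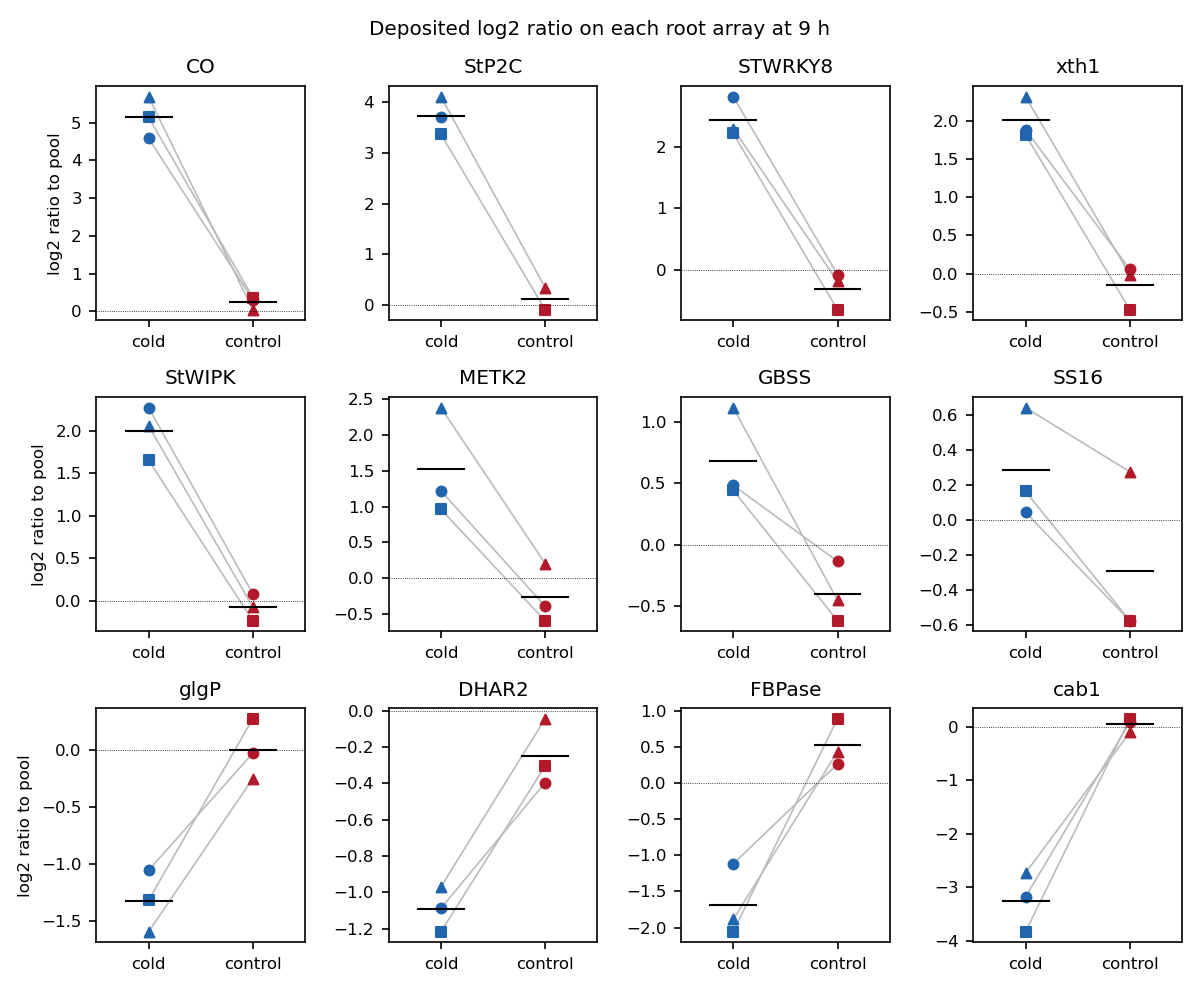
Each panel shows 1 gene, with the deposited log2 ratio of the sample to its reference pool on the y axis for the cold arrays (left, blue) and the control arrays (right, red); the circle, square and triangle are replicates 1, 2 and 3, lines join a pair, and black bars are means. StP2C has no control value for replicate 1, the cold values of CO lie between 4.59 and 5.69, and SS16 is the panel in which the groups overlap.

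Transcription factor genes held the largest change of any named gene. Of 32 spots of 13 genes, 13 were called positive and 3 negative, with a median of 0.35. CO, the potato CONSTANS gene, known from the photoperiod control of tuber formation and, in Arabidopsis, of flowering, had 4.59, 5.15 and 5.69 on cold arrays, against 0.31, 0.37 and 0.04 on control arrays. The change of 4.90 ± 0.23 (SE, 29.9-fold, adjusted p = 7.49e-13) was the third most positive of the whole comparison under the rule used to name spots, and its partner gave 4.44. Cold and control values of CO were separated by more than 4 log2 units.

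STWRKY8, a WRKY factor of the family that drives defence genes, was called on all 4 of its spots, at 2.73 to 3.02. On the spot with the values shown in the per-array plot it had 2.81, 2.21 and 2.29 on cold arrays against -0.07, -0.64 and -0.18 on control arrays. StWRKY16 changed by 1.51 ± 0.17 (SE, 2.84-fold, adjusted p = 6.04e-07), with 1.39, 0.61 and 1.23 on cold arrays and -0.17, -0.89 and -0.23 on control arrays. Within each of these WRKY genes the replicate with the lowest control value also had the lowest cold value. WRKY1, the remaining gene of the family on the list, had no call, with spots at 0.36 and 0.36 (adjusted p = 0.476 and 0.443).

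NAC2, a NAC-domain factor, had 2.33, 1.83 and 1.79 on cold arrays, against 0.74, 0.57 and 0.55 on control arrays, a change of 1.37 ± 0.29 (SE, adjusted p = 0.00107). Its log2 ratios were above 0 on the control arrays as well, and after quantile scaling, which gives all arrays the same spread, the change was 0.08 (adjusted p = 0.905, against 0.000335 to 0.905 over all alternatives). The DOF factor dof1 was called on 1 of 2 spots, at 0.74 and 0.34, and the MYB factor StMYB1R-1 on both, at 0.52 and 0.46. Without the replicate block, StMYB1R-1 had an adjusted p of 0.0689 instead of 0.0309, and leaving out replicate 2 brought its change to 0.26. The Whirly proteins, which bind single-stranded DNA in the nucleus and organelles, were on the negative side, with both spots of WHY2 called (-0.71 and -0.54) and 1 of 2 spots of WHY1 (-0.74 and -0.29).

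The methionine cycle and polyamine genes had 20 positive calls and 0 negative calls among 40 spots of 6 genes (median 0.54). These counts include threonine synthase (TS), which makes threonine. METK2, an S-adenosylmethionine synthetase that makes the cell's main methyl donor, was called on all 4 spots, at 1.22 to 1.79. It had 1.22, 0.96 and 2.38 on cold arrays and -0.40, -0.60 and 0.20 on control arrays on the spot with a change of 1.79 ± 0.24 (SE, 3.45-fold, adjusted p = 5.70e-06). Replicate 3 was high in both groups, so that the 3 pairs were closer to each other than the 3 cold arrays were. METK1, the other synthetase gene on the array, had 6 tested spots between -0.24 and 0.32 and no call.

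SAMDC, the S-adenosylmethionine decarboxylase that commits the methyl donor to polyamines, was called on 14 of 16 spots, at 0.83 to 1.54. The remaining pair of SAMDC spots gave -0.15 and -0.23, so probes annotated to this gene did not all behave alike. Methionine synthase (MS) was called on 1 of 10 spots, with all 10 between 0.21 and 0.64. Threonine synthase (TS) was called on 1 of 2 spots (0.40 ± 0.13 SE, adjusted p = 0.0297), and without replicate 2 its change was 0.25 (adjusted p = 0.327). Spermidine synthase (SpdSy), the next step of the polyamine route, had spots at -0.08 and -0.16 and no call.

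In the shikimate and lignin group all 4 spots of 2 genes were called positive. SHKA, the entry enzyme of the shikimate pathway, changed by 0.88 ± 0.17 (SE, adjusted p = 0.000426), and CCoAOMT, a methyltransferase of lignin synthesis, by 1.19 ± 0.25 (SE, adjusted p = 0.000679). CCoAOMT had 0.52, 0.74 and 1.62 on cold arrays, against -0.38, -0.25 and -0.07 on control arrays. Among cell wall genes, 5 of 8 spots were called positive and 0 negative. The xyloglucan-modifying enzyme xth1 led them with 1.88, 1.82 and 2.32 on cold arrays and 0.06, -0.47 and -0.01 on control arrays, a change of 2.15 ± 0.32 (SE, 4.44-fold, adjusted p = 1.55e-05). RGP2, a reversibly glycosylated polypeptide of wall polysaccharide synthesis, was called on 3 of 4 spots, all 4 lying between 0.54 and 0.64, and PEST2, a pectinesterase, had no call.

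**Figure D3:**
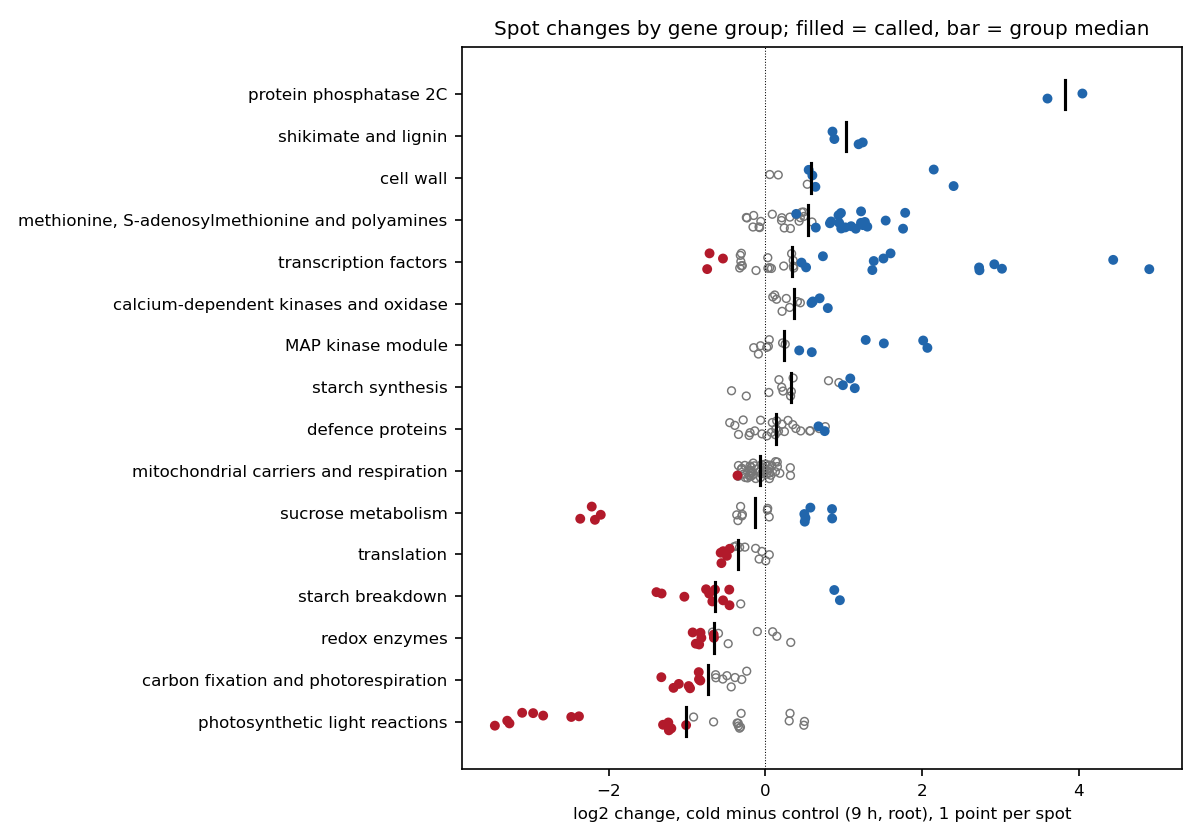
Each point is a tested spot, with its log2 change (cold minus control at 9 h in root) on the x axis and the gene groups in rows; filled points are called, blue positive and red negative, open points are not, and the black bar is the group median. All spots of the protein phosphatase and lignin rows are called positive, the methionine row has 20 positive calls among 40 spots that run from -0.24 to 1.79, and the photosynthesis, redox and translation rows have no positive call.

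The most negative change of any named gene was that of cab1, a chlorophyll a/b-binding protein of the light-harvesting antenna. The light reaction genes cab1, psbP, PSBO and PSBR had 13 negative calls and 0 positive calls among 25 spots, with a median of -1.01. All 8 spots of cab1 were called, at -3.45 to -2.38. One of them had -3.18, -3.84 and -2.74 on cold arrays, against 0.08, 0.15 and -0.10 on control arrays, a change of -3.30 ± 0.50 (SE, 9.82-fold, adjusted p = 6.83e-05). No cold value of this spot came within 2 log2 units of a control value. The oxygen-evolving complex subunit psbP was called on all 4 tested spots, at -1.31 to -1.20. PSBO, of the same complex, was called on 1 of 3, and that call had an adjusted p of 0.0396 with and 0.0821 without the replicate block (0.00531 to 0.246 over all alternatives). PSBR had 10 tested spots and no call, with 6 between -0.36 and -0.31 and 4 between 0.30 and 0.50.

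These 4 genes also serve as markers of green tissue. Over their 20 spots with a value on all 6 arrays, the mean log2 ratio was -0.94, -1.04 and -0.70 on cold arrays and 0.20, 0.30 and -0.24 on control arrays. These spots include those of PSBR, which had no call and changes of -0.36 to 0.50, so the mean does not describe every marker. The part that an unequal content of green cells may have in these changes was not tested. In such bulk samples a change in the number of cells of a type and a change in RNA per cell cannot be told apart.

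Carbon fixation and photorespiration genes had 8 negative calls and 0 positive calls among 16 spots of 5 genes, with a median of -0.73. Transketolase (TK), shared by the Calvin cycle and the pentose phosphate pathway, was called on all 4 spots, at -1.33 to -0.98, with -1.18, -0.71 and -1.15 on cold arrays against -0.03, 0.24 and 0.06 on control arrays on one of them. Ribulose-phosphate epimerase (RPE) and the triose phosphate translocator (TPT) were called on 2 of 4 spots each, at their most negative -0.85 and -0.96. The photorespiratory genes GDCST and SHMT had values of -0.54 to -0.24 and no call.

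Starch and sucrose genes had calls of both signs. Of 13 spots of starch breakdown genes, 10 were called negative and 2 positive. The phosphorylase gene glgP, which releases glucose phosphate from glucan chains, was called on its 3 tested spots at -1.39 to -1.03, with -1.06, -1.32 and -1.60 on cold arrays and -0.03, 0.28 and -0.25 on control arrays on one of them (-1.32 ± 0.22 SE, adjusted p = 5.47e-05). R1, the glucan water dikinase that phosphorylates starch and so opens it to attack, was called on all 4 spots (-0.76 to -0.64), and dpeP, the disproportionating enzyme, on 3 of 4 (-0.54 to -0.31). Leaving out replicate 2 took the R1 spot described here to an adjusted p of 0.0616.

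AMYA1, an alpha-amylase, ran against the other starch breakdown genes, at 0.88 and 0.95. It had 0.10, 0.70 and 0.69 on cold arrays and -0.60, -0.23 and -0.32 on control arrays. Among 14 spots of starch synthesis genes, 3 were called positive and 0 negative (21.4% called, against 30% over all named spots). GBSS, the granule-bound synthase that makes amylose, had 1 printed pair at 1.08 and 1.14, both called, and another at 0.23 and 0.94 with no call. The branching enzyme SBE1 was called on 1 of 2 spots, at 0.99 and 0.81, and SS2, agpS2 and agpS3 had no call.

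In sucrose metabolism, FBPase, the fructose bisphosphatase that feeds carbon towards sucrose, was called negative on all 4 spots, at -2.36 to -2.10. It had -1.12, -2.06 and -1.89 on cold arrays, against 0.26, 0.89 and 0.43 on control arrays, a change of -2.22 ± 0.28 (SE, 4.65-fold, adjusted p = 1.64e-06). The sucrose synthase SS16, which cleaves sucrose in sink tissue, was called positive on 4 spots at 0.50 to 0.58, and the invertase InvCD141 on both of its spots at 0.85. The SS16 arrays overlapped, at 0.04, 0.16 and 0.64 on cold and -0.58, -0.58 and 0.28 on control arrays, and its call rests on the pairing, since without the replicate block the adjusted p was 0.158 instead of 0.00307. InvCD141 likewise had 0.143 without the block instead of 0.00963. The vacuolar invertase PAIN-1, UGPase and InvCD111 had no call.

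Redox enzymes had 7 negative calls and 0 positive calls among 14 spots of 4 tested genes, with a median of -0.66. DHAR2, a dehydroascorbate reductase that regenerates vitamin C, was called on all 4 spots at -0.93 to -0.83, with -1.09, -1.22 and -0.97 on cold arrays and -0.40, -0.30 and -0.04 on control arrays on one of them. A second gene of this activity, DHAR, was called on 2 of 4 spots, at -0.82 and -0.66, while its highest spot stood at 0.15. The arrays of the DHAR spot at -0.66 overlapped, with 0.01 on cold and -0.03 on control replicate 1. The catalase CAT1 was called on 1 of 4 spots, at -0.66, and the arrays of that spot overlapped. Averaging the printed pair put CAT1 at an adjusted p of 0.0514, against 0.0133 for the spot.

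Translation genes had 5 negative calls and 0 positive calls among 14 spots, a share called of 35.7%, near the 30% over all named spots. The called spots belong to 2 isoforms of eIF5A, a translation elongation and initiation factor. eIF5A3 changed by -0.57 ± 0.13 (SE, adjusted p = 0.00179), and eIF5A4 was called on 3 of 5 spots, one of them at an adjusted p of 0.0397 that was 0.0526 without the replicate block. Mitochondrial carriers and respiratory enzymes had 1 negative call (an ADP/ATP carrier spot at -0.36) and 0 positive calls among 48 spots of 13 genes, with all 48 between -0.36 and 0.32. It was the largest of the groups examined.

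Defence proteins had 2 positive calls among 28 spots of 8 tested genes, both from the proteinase inhibitor PIN2K, at 0.68 and 0.76. The first of these spots was no longer called without replicate 2 (adjusted p = 0.0749), without replicate 3 (0.155) or after quantile scaling (0.19, adjusted p = 0.600, against 0.00408 to 0.600 over all alternatives). The inhibitor genes PIN-II (0.29 and 0.08) and KTI-C (0.13 to 0.77) had no call. The same held for the pathogenesis-related PR1B, the chitinases ChtA and SK2, patatin and PPO. Of the genes annotated to the classic cold regulon, the late embryogenesis abundant gene Lea had spots at 0.12 and 0.17 with no call, and the dehydrin CI7 had no tested spot. The 8 spots of the chaperone dnaJ lay between -0.0033 and 0.23 with no call.

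RSI5 was chosen after its values were seen, as the named gene outside these groups with the most positive change. It had 3.30, 3.38 and 3.09 on cold arrays, against 0.08, 0.19 and 0.04 on control arrays, a change of 3.15 ± 0.20 (SE, 8.90-fold, adjusted p = 4.87e-11). Both groups of arrays were tight, and its partner spot gave 3.16.

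The most extreme changes of the comparison came mostly from spots with no gene name here. By the naming rule (all 6 values, the same sign in 3 pairs and in the partner), the 10 most positive changes ran from 3.80 to 5.41, and CO was the only one with a name. Spot 143382 had 4.68, 4.73 and 4.75 on cold arrays and -0.76, -0.40 and -0.92 on control arrays, a change of 5.41 ± 0.29 (SE, 42.5-fold, adjusted p = 1.49e-11). Spot 152118 had 5.29, 5.29 and 5.70 on cold arrays and 0.60, 0.23 and -0.22 on control arrays, a change of 5.22 ± 0.25 (SE, adjusted p = 5.23e-10). In both spots the control arrays scattered more than the cold arrays.

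The 10 most negative changes ran from -4.65 to -2.55, and 3 of them were spots of cab1. Spot 131752 had -4.64, -4.32 and -4.64 on cold arrays and 0.26, 0.28 and -0.20 on control arrays, a change of -4.65 ± 0.51 (SE, 25.1-fold, adjusted p = 2.42e-07). Such low values come in coarse steps, because the deposited values are logs of ratios kept to 2 decimals. Spot 148680 rested in part on control replicate 2, which stood at 2.90 while the other control arrays were at -0.06 and -0.12. Without that array its change was -1.61, against -2.63 with it.

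The response at 9 h stood between a smaller one at 3 h and a broader one at 27 h, each against the controls of its own time. Called spots made up 14.6% of those tested at 3 h, 27.9% at 9 h and 40.8% at 27 h. Of 4448 spots called at 9 h and tested at all times, 774 (17.4%) were called with the same sign at 3, 9 and 27 h. A further 149 (3.35%) were called at 3 and 9 h but not 27 h, 2182 (49.1%) at 9 and 27 h but not 3 h, and 985 (22.1%) at 9 h alone. The remaining 358 (8.05%) were called with the other sign at 3 or 27 h. The 3 and 27 h samples fall at the same hour of the day and the 9 h samples do not, so hours of cold and hour of day cannot be told apart in these shapes.

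The change at 9 h differed from that at 3 h for 2505 of 16034 spots (15.6%), with 1522 differences positive (9.49%) and 983 negative (6.13%). Without replicate 3 that count was 882, and without replicate 2 it was 1225. Among the spots called at 9 h, 1829 of 4521 differed from 3 h (40.5%), a share raised by choosing the spots on the same 9 h arrays. Of the positive calls at 9 h, 187 of 2394 (7.81%) had been called negative at 3 h. Of the negative calls, 64 of 2127 (3.01%) had been called positive at 3 h. For scale, 14.6% of all spots tested at 3 h were called, both signs together, and neither share exceeds that.

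Several named genes were among those that differed between 3 and 9 h. CO changed by 0.72 at 3 h, 4.90 at 9 h and 2.19 at 27 h, and both steps differed from 0 (4.18 ± 0.33 SE for 9 h minus 3 h, adjusted p = 1.40e-08, and -2.72 ± 0.33 SE for 27 h minus 9 h, adjusted p = 1.44e-05). GBSS changed sign between times on the spot chosen by the naming rule, at -1.39 at 3 h, 1.08 at 9 h and -0.99 at 27 h. The differences of that spot were 2.47 and -2.07. Its printed partner had -0.49, 1.14 and -0.73. The other GBSS pair, not called at 9 h, had -0.57 and -0.64 at 3 h and -0.37 and -0.42 at 27 h. RSI5 changed by -0.55 at 3 h, which was not called (adjusted p = 0.0662), 3.15 at 9 h and 2.90 at 27 h. In these 3 genes most of the change seen at 9 h was not yet present at 3 h.

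NAC2 was called negative at 3 h (-0.99) and positive at 9 h (1.37) and 27 h (2.50), and AMYA1 had -0.74 at 3 h, 0.88 at 9 h and 0.11 at 27 h. METK2 changed by -0.01 at 3 h, 1.79 at 9 h and 1.77 at 27 h. STWRKY8 had 1.35 at 3 h, 2.73 at 9 h and 2.69 at 27 h, with a difference of -0.05 ± 0.32 (SE, adjusted p = 0.966) between the last 2 times. StWIPK had 0.82 at 3 h, 2.07 at 9 h and 2.28 at 27 h.

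For other genes neither difference between times passed the test. The xth1 changes were 2.26 at 3 h, 2.15 at 9 h and 2.31 at 27 h, with differences of -0.11 ± 0.45 and 0.16 ± 0.45 (SE). The cab1 changes were -3.78 at 3 h, -3.30 at 9 h and -3.42 at 27 h, with differences of 0.49 ± 0.80 and -0.13 ± 0.71 (SE). StP2C had its highest value at 9 h, with 2.72 at 3 h, 3.60 at 9 h and 2.27 at 27 h (adjusted p = 0.313 and 0.192 for the differences). A p that misses the threshold does not show that the changes were equal.

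**Figure D4:**
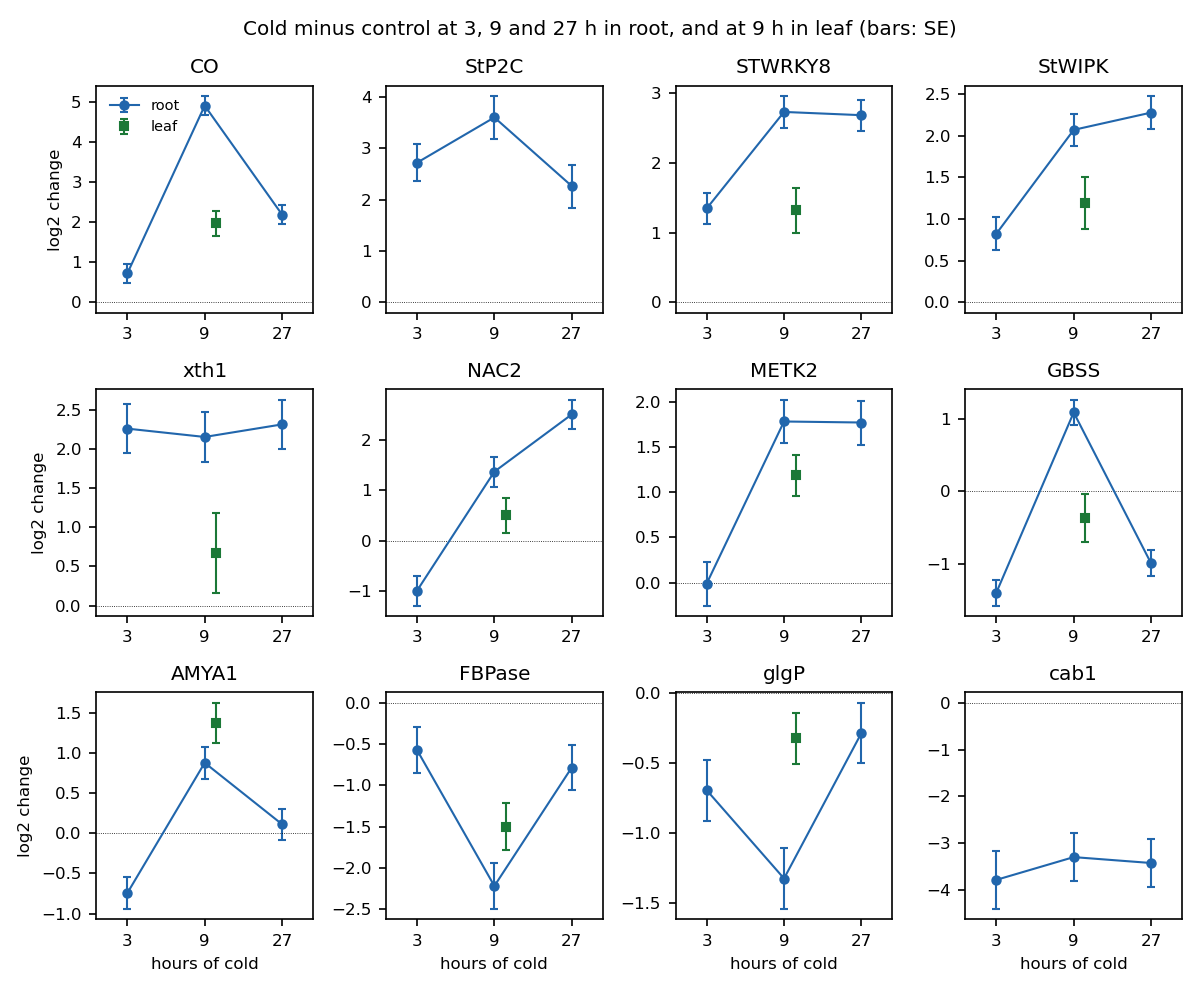
Each panel shows 1 gene, with the log2 change (cold minus control) on the y axis at 3, 9 and 27 h of cold in root (blue circles) and, where tested, at 9 h in leaf (green square, drawn beside the 9 h root point); bars are standard errors and the hour axis is not to scale. CO, GBSS and AMYA1 are highest at 9 h, FBPase and glgP lowest at 9 h, and xth1 has 2.26, 2.15 and 2.31 in turn.

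The change at 27 h differed from that at 9 h for 1128 of 15828 spots (7.13%), with 625 positive (3.95%) and 503 negative (3.18%). This count moved with the fit: it was 741 without the replicate block, 259 without replicate 2 and 340 without replicate 3. Of spots called at 9 h, 166 differed from both other times with their highest value at 9 h and 140 with their lowest. A further 56 became more positive at each step and 7 more negative. The spots were chosen on the 9 h arrays, which also enter both differences, so scatter on those arrays favours extremes at 9 h. FBPase had its lowest value at 9 h, with -0.57 at 3 h, -2.22 at 9 h and -0.78 at 27 h, and both differences passed the test (-1.64 ± 0.39 SE, adjusted p = 0.00504, and 1.43 ± 0.39 SE, adjusted p = 0.0274). The starch breakdown gene glgP moved back towards 0, from -1.32 at 9 h to -0.29 at 27 h. R1 moved from -0.64 to 0.24, on the other side of 0. Their differences for 27 h minus 9 h were 1.04 and 0.89. RBOHC had 0.82 at 3 h, 0.69 at 9 h and 1.53 at 27 h (difference for 27 h minus 9 h 0.83 ± 0.23 SE, adjusted p = 0.0316).

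Among unnamed spots, 131752 had its change of -4.65 at 9 h alone, against -0.65 at 3 h and -0.04 at 27 h. Spots 153493 and 151893, the next most negative, had -4.03 each at 9 h, -1.67 and -1.49 at 3 h, and -1.96 and -1.51 at 27 h. Spots 143827, 142073 and 162580 had the most positive differences between 3 and 9 h, of 5.05, 4.98 and 4.50. At 3 h they were at -2.69, -2.56 and -3.45, and at 9 h at 2.36, 2.42 and 1.05. Their control arrays lay mostly above 0, and after quantile scaling none of the 3 was called at 9 h, at 0.92, 0.90 and 0.23.

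Leaf samples of the same time and experiment gave a partly different response. Cold changed 24.2% of tested spots in leaf at 9 h, and the root change minus the leaf change differed from 0 for 1686 of 15434 spots (10.9%), with 889 positive (5.76%) and 797 negative (5.16%). Fitting only the 4 groups compared gave 1020 such spots, and leaving out replicate 1, 2 or 3 gave 905, 1079 and 906. Of the spots called positive in root and tested in leaf, 982 of 2251 (43.6%) were called positive in leaf and 50 negative, and of those called negative in root, 813 of 2087 (39.0%) were called negative in leaf and 59 positive.

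CO changed by 4.90 in root and 1.97 in leaf, a difference of 2.93 ± 0.40 (SE, adjusted p = 2.28e-06). The change of STWRKY8 was 2.73 in root and 1.32 in leaf (difference 1.41 ± 0.41 SE, adjusted p = 0.0177), and that of dof1 0.74 in root and -0.15 in leaf (difference 0.88 ± 0.19 SE, adjusted p = 0.00111). InvCD141 was called positive in root (0.85) and negative in leaf (-1.29), a difference of 2.14 ± 0.42 (SE, adjusted p = 0.000447). Changes in the starch and sucrose genes differed as well, with GBSS at 1.08 in root and -0.37 in leaf, glgP at -1.32 in root and -0.33 in leaf, and SS16 at 0.58 in root and 1.38 in leaf.

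RSI5, by contrast, changed by 3.15 in root and 3.25 in leaf (difference -0.10 ± 0.34 SE, adjusted p = 0.895). Spot 151458 had 3.53 in root and 0.17 in leaf, a difference of 3.35 ± 0.28 (SE, adjusted p = 4.45e-11), with 3.62, 3.16 and 2.89 on cold root arrays and 0.07, -0.56 and -0.43 on control root arrays. In the other direction, LOC102577637 had -0.88 in root and 3.27 in leaf, a difference of -4.15 ± 0.39 (SE, adjusted p = 5.75e-09). Its root call alone had an adjusted p of 0.0606 without the replicate block, and its root change was -0.56 without control replicate 2 and -0.20 after quantile scaling.

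**Figure D5:**
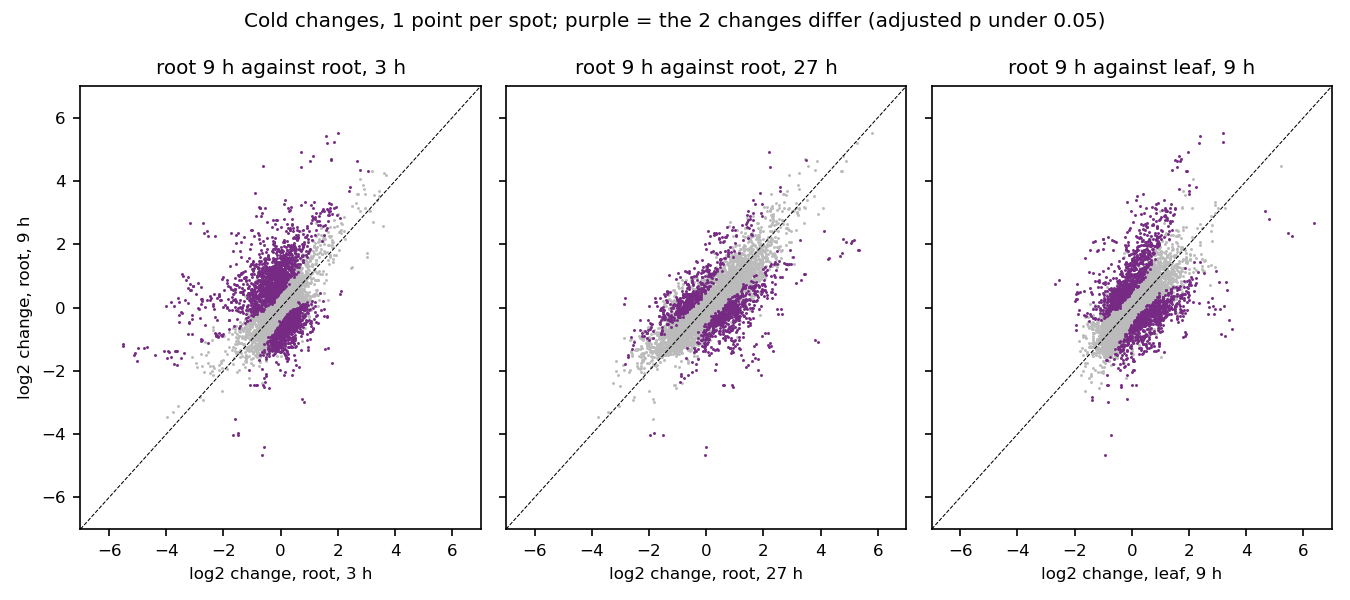
Each point is a spot, with the log2 change (cold minus control) in root at 9 h on the y axis and the log2 change in root at 3 h (left), root at 27 h (middle) or leaf at 9 h (right) on the x axis; purple marks spots whose changes differ at an adjusted p under 0.05 and the dashed line is equality. The cloud lies closest to the line at 27 h, where 7.13% of spots differ, and is widest at 3 h, where 15.6% differ.

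Heat and salt roots of the same hour share the control arrays with cold roots, so their values are given side by side without a comparison. Called spots made up 7.50% of those tested for heat and 5.86% for salt. StP2C, changed by 3.60 in cold, had -0.27 in heat and -0.15 in salt, while its partner spot had 0.80 in salt and was not tested in heat. CO, changed by 4.90 in cold, had -0.15 in heat and -0.13 in salt. StWIPK had 2.07 in cold, -0.15 in heat and 0.05 in salt, and the 4 spots of STWRKY8 had 2.73 to 3.02 in cold, -0.14 to -0.03 in heat and 0.27 to 0.56 in salt. RSI5 had 3.15 in cold, -0.31 in heat and 2.09 in salt, AMYA1 had 0.88 in cold, 0.85 in heat and 1.04 in salt, and FBPase had -2.22 in cold, -1.19 in heat and -0.38 in salt.

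A number of spots could not be compared because 1 group had no value. There were 263 spots with at least 2 cold values and no control value, 79 of them with all 3 cold values, and 107 spots with no cold value and at least 2 control values, 20 of them with all 3. The rule for empty cells is not given in the sources used here, so no fold was computed for them. The cold arrays had 17296, 17444 and 17146 measured spots and the control arrays 16776, 16670 and 17206.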

How the data were processed

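RNA was hybridised to 2-colour spotted arrays, Cy3 for the sample and Cy5 for a pooled unstressed reference, per the labels. The deposited table holds the authors' log2 ratios, and the submitters' processing notes name limma with no role or version. The sources used here name no scanner, background correction or normalization. Deposited values lay within 0.0015 of the log2 of a ratio kept to 2 decimals. No further scaling was applied.

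A model was fitted with limma 3.58.1 (R 4.3.3) to all 36 root arrays (all 72 for root against leaf), with 1 term per stress and time and the reference pool (replicate number within time, 9 in root) as a block. Empirical Bayes p-values were adjusted by Benjamini-Hochberg over all tested spots at a threshold of 0.05, with at least 2 values per group. The replicate numbers mark independent experiments per the labels. Deviations from group means correlated at 0.18, 0.31 and 0.27 between cold and control arrays of the same number and at -0.28 to 0.01 between different numbers. Such deviations cancel within a group at each spot, so positive values for the same number bring negative ones elsewhere by construction. The procedure was tested on simulated data. P-values cover the spread between the 3 experiments, each of pooled plants. That spread was pooled for each spot over all stresses and times in the fit and moderated across spots. Standard errors and p-values therefore do not give the spread of the 3 pairs at 9 h alone.

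Spots were named through the platform's annotation, updated by gene identifier with a RefSeq table (SolTub_3.0). Of 1810 annotated spots, 180 carried several genes and were not named. The printed pairs were worked out from row offsets of 844 and 1859, and the genes of both partners matched for all 1810. Spots named in the text were the 10 most positive and 10 most negative changes at 9 h, the 3 and 3 most extreme differences for each of 3 h, 27 h and leaf, and up to 4 called spots per gene list. Other genes of the same groups were added after their values were seen. The members and lists were chosen with earlier results of these data known. Alternatives changed the block, the arrays fitted, the scaling, the value minimum, the handling of printed pairs and the variance model, or left out arrays.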

Additional observations from a re-analysis of the deposited data

Results flagged for a closer look

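Cold changes that differ between 9 h in root and another time or tissue drew attention, each by a test of the difference itself. Such differences numbered 2505 spots for 9 h minus 3 h, 1128 for 27 h minus 9 h and 1686 for root minus leaf.

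For 9 h minus 3 h, the spots chosen by the naming rule were 143827 at 5.05, 142073 at 4.98 and 162580 at 4.50, and on the negative side 131752 at -4.00, 149574 at -3.78 and 136804 at -2.92. Among named genes the difference was positive for CO (4.18), GBSS (2.47), NAC2 (2.36), METK2 (1.80), AMYA1 (1.62), PIN2K (1.61), StWRKY16 (1.40), STWRKY8 (1.39), CCoAOMT (1.33), StWIPK (1.25), dof1 (0.81), SHKA (0.79) and StMKP1 (0.72). It was negative for FBPase (-1.64), WHY2 (-0.87) and DHAR2 (-0.75).

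For 27 h minus 9 h, spot 140825 had 4.83, spot 131752 had 4.61 and spot 158627 had 4.02, and the most negative were CO at -2.72, spot 142073 at -2.36 and GBSS at -2.07. Spot 140825 was negative at 9 h (-1.04) and positive at 27 h (3.79). FBPase had a difference of 1.43, glgP of 1.04, R1 of 0.89 and RBOHC of 0.83.

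For root minus leaf, spots 160711, 159282 and 151458 had 3.40, 3.38 and 3.35, and LOC102577637, spot 142983 and spot 137950 had -4.15, -3.34 and -2.78. The difference was 2.93 for CO, 2.14 for InvCD141, 1.45 for GBSS, 1.41 for STWRKY8 and 0.88 for dof1, and it was -0.999 for glgP and -0.80 for SS16.

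Spots outside the comparison also drew attention: 79 had a value on all 3 cold arrays and none on a control array, against 20 with a value on all 3 control arrays and none on a cold array.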

How the results depend on the processing

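No called spot of the 9 h comparison was called with the other sign under any alternative, and between 57.8 and 99.9% of the 4602 calls held their call and sign, counted where printed pairs were not averaged. The count was 4064 without the replicate block and 4622 after median centring. Quantile scaling, which by construction narrows the wider cold arrays (SD 0.656 to 0.715, against 0.279 to 0.376 on control arrays), gave 2994 calls, 1383 for 9 h minus 3 h, 150 for 27 h minus 9 h (78.0% positive, against 55.4%) and 468 for root minus leaf. Averaging printed pairs, which leaves fewer features, gave 2678, 1538, 731 and 1115 for these comparisons. Without the replicate block the differences numbered 1977, 741 and 1301, so the block moved the 27 h minus 9 h count by over 1.5 times, and fitting only the compared groups gave 1020 for root minus leaf. Leaving out arrays gave 2978 to 4131 calls at 9 h, the lowest without replicate 2, 882 to 2311 for 9 h minus 3 h, 259 to 861 for 27 h minus 9 h and 905 to 1404 for root minus leaf. The share of positive differences for 9 h minus 3 h was 60.8%, against 73.6% without replicate 2 and 75.9% without replicate 3. Of 1169 values of 65 named spots under 18 alternatives, 1086 kept their direction and side of the threshold, 83 lost the call and 0 reversed, and 20 spots lost a call somewhere. Quantile scaling moved 21 named spots by over 1.5 times, including CO to 2.83, StP2C to 2.01, StWIPK to 1.21, xth1 to 1.30, STWRKY8 to 1.78, DHAR2 to -0.53, CAT1 to -0.43, PIN2K to 0.19, InvCD141 to 0.40 and StMYB1R-1 to 0.32. Under it the calls of NAC2, PIN2K, CAT1, InvCD141, StMYB1R-1, WHY2, eIF5A4, LOC102577637 and several spots without a name were lost. Dropping the block ended the calls of SS16, eIF5A4, PSBO, InvCD141, StMYB1R-1 and LOC102577637. Beyond the construction of each alternative, the cause was not tested. The number of arrays limits the precision, and the deposited ratios give no signal over background.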
